A study of Dicentrarchus labrax with 8 samples.

Results

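The genes described here encode structural proteins of the centromere and kinetochore, and they are *cenph*, *cenpi*, *nsl1*, *ndc80*, *spc25* and *cenpf*. They are 6 of the 11687 target names on a European sea bass oligonucleotide array, and they were chosen by name because their expression differed between stage I and stage II testes in these same arrays. The difference between the stages is therefore given as a description, without a test. All 6 genes had a higher signal in every stage II pool than in any stage I pool, as had 22.2% of all targets tested. Between the stage means the genes differed by 1.82- to 3.67-fold. Under normexp background correction, an alternative, the stages overlapped for *cenpi* and its log2 difference was 0.14 in place of 0.87. In the main processing the mean difference was wider for *spc25* and *cenpf* than for the other genes, and it was narrowest for *cenpi*. Within each pair of a stage II pool with a stage I pool, the difference of *cenpf* was wider than those of *cenph*, *ndc80* and *nsl1*. The order was not firm under other processing. Under normexp *spc25* (1.20) was close to *cenph* (1.18), and after quantile normalization *cenph* (1.17) lay below *cenpi* (1.19).

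The kinetochore is the protein structure that is built on the centromere of each chromosome when a cell divides and that holds the chromosome to the spindle microtubules. Its inner layer, which sits on centromeric chromatin, includes Cenph and Cenpi, and its outer layer includes the rod-shaped Ndc80 complex, which binds the microtubule. In the testis, spermatogonia multiply by mitosis within cysts before their descendants enter meiosis, and kinetochores are assembled at each of these divisions.

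Testes were taken from cultured male sea bass (*Dicentrarchus labrax*) approaching puberty, after males with precocious puberty had been removed, and were classified by histology. The males used for the arrays were also selected by their plasma level of the main fish androgen, so the stages differ in this hormone by selection. At stage I the germ cells were type A spermatogonia and maturation had not begun. At stage II many type B spermatogonia, the later form, had appeared in cysts, and spermatocytes were seen in part of the testes. Total RNA of the whole tissue was combined into 3 pools per stage, each of several males and all from different fish, and labelled with a single dye (Cy3). The spread between pools is thus that of averages over fish, not that between single fish. No drug or genetic change separated the groups.

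The 3 stage I pools were hybridised on plate 36 and the 3 stage II pools on plate 37, and pool 3 of each stage was hybridised a second time on the opposite plate, which gave 8 arrays. Without control spots, an array carried 43803 spots for 24200 probes. The 75th percentile of the signal was 2559 to 2994 on the stage I arrays and 3245 to 4402 on the stage II arrays. The share of spots that exceeded background clearly was 75.8 to 86.7% on 7 arrays and 60.2% on the array of stage II pool 1, so that results in which this pool stands out are given with and without it. Levels are given on the log2 scale with each array's 75th percentile set to 0, and the spread is the SD over 3 pools. The SE of a difference is the moderated one of limma, which draws the variance of each target towards that of all targets. It therefore does not follow from the SDs of the gene alone. A level can be compared between pools for the same gene but not between genes, because probes differ in how well they hybridise. In a whole tissue, fewer cells of a type and less RNA per cell cannot be told apart.

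The array files name each target by its EST or contig, and the gene symbols are those that the supplementary gene list of the study pairs with these targets. The target of *cenph* is SeabassC-CL995Contig1, that of *cenpi* is cDN29P0004N21.F.ab1 and that of *nsl1* is cDN24P0005B04.F.ab1. The target of *ndc80* is cDN29P0002F01.F.ab1, that of *spc25* is SeabassC-CL3697Contig1 and that of *cenpf* is cDN29P0005C17.F.ab1. Each gene had 3 probes with 2 spots per probe, and all 18 probes passed the filter on dim probes, which asks that all arrays of a stage show a probe well above background. The sea bass gene table of RefSeq (assembly dlabrax2021) holds 1 gene under each of the 6 symbols, with 3 transcripts for *cenpf*, 2 for *cenpi* and 1 for each of the other genes.

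Of the 6 genes, *cenpf*, *cenpi* and *spc25* were also amplified by qPCR in the study, and those measurements were not analysed here. The primers are shown because they are the only sequences at hand for these symbols, and they were not placed on the array targets or on single transcripts. They are read 5′ to 3′ and each is 20 bases long.
cenpf forward: ggcagcttgacaagatcaca
cenpf reverse: gagagacggcacacttctcc
cenpi forward: tctggctaggctacgctctc
cenpi reverse: gtgctgtgtggacagcaact
spc25 forward: catttggggatggagatacg
spc25 reverse: gtcctgatccaaagggttga

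The inner kinetochore was represented by *cenph* and *cenpi*, subunits of the constitutive centromere-associated network that in vertebrates remains on the centromere through the cell cycle. The level of *cenph* was 0.46, 0.32 and 0.38 in stage I pools 1, 2 and 3, and 1.71, 1.51 and 1.49 in stage II pools 1, 2 and 3. The pools of the stages did not overlap, and stage II pool 1 was the highest. Mean levels (± SD, n = 3) were 0.39 ± 0.07 in stage I pools and 1.57 ± 0.12 in stage II pools, a difference of 1.18 on the log2 scale (SE 0.09) or 2.27-fold. The processed signal, before scaling, was 3202 to 4065 on the stage I arrays and 10474 to 12554 on the stage II arrays. Its 3 probes gave log2 differences of 1.13, 1.11 and 1.31.

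The level of *cenpi* was -4.36, -4.20 and -4.24 in stage I pools 1, 2 and 3, and -3.60, -3.24 and -3.36 in stage II pools 1, 2 and 3. The groups did not overlap, but here stage II pool 1 was the lowest of its stage and lay 0.60 above the highest stage I pool. Mean levels (± SD, n = 3) were -4.27 ± 0.08 in stage I pools and -3.40 ± 0.19 in stage II pools, a log2 difference of 0.87 (SE 0.12) or 1.82-fold. The gene was dim, with a processed signal of 125 to 172 on the stage I arrays and 267 to 467 on the stage II arrays. Of its 3 probes, 1 was not well above background on the array of stage II pool 1, and the probes gave log2 differences of 0.88, 0.82 and 0.90. Without stage II pool 1 the log2 difference of *cenpi* was 0.97, and under normexp background correction it was 0.14, with stage I pool 3 above every stage II array.

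*nsl1* encodes a subunit of the Mis12 complex, which links the inner kinetochore to the Ndc80 complex. Its level was -2.62, -2.77 and -2.53 in stage I pools 1, 2 and 3, and -1.30, -1.76 and -1.49 in stage II pools 1, 2 and 3. All 3 stage II pools lay above all 3 stage I pools, with pool 1 highest and pool 2 lowest in stage II. Mean levels (± SD, n = 3) were -2.64 ± 0.12 in stage I pools and -1.52 ± 0.23 in stage II pools, a log2 difference of 1.12 (SE 0.14) or 2.18-fold. The probes gave log2 differences of 1.09, 1.08 and 1.20.

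The outer kinetochore was represented by *ndc80* and *spc25*, which encode subunits at opposite ends of the Ndc80 complex. Ndc80 holds the microtubule-binding end, and Spc25 lies at the end that docks to the inner kinetochore. The level of *ndc80* was -2.80, -2.79 and -2.48 in stage I pools 1, 2 and 3, and -1.38, -1.57 and -1.67 in stage II pools 1, 2 and 3. The stages did not overlap, stage I pool 3 was the highest of its stage, and stage II pool 1 was the highest of all. Mean levels (± SD, n = 3) were -2.69 ± 0.19 in stage I pools and -1.54 ± 0.15 in stage II pools, a log2 difference of 1.15 (SE 0.13) or 2.22-fold. Its 3 probes each gave a log2 difference of 1.15.

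The level of *spc25* was -3.36, -3.42 and -3.20 in stage I pools 1, 2 and 3, and -1.19, -1.57 and -1.59 in stage II pools 1, 2 and 3. The gap between the highest stage I pool and the lowest stage II pool, 1.61, was the widest of the 6 genes. Mean levels (± SD, n = 3) were -3.33 ± 0.12 in stage I pools and -1.45 ± 0.23 in stage II pools, a log2 difference of 1.88 (SE 0.13) or 3.67-fold. The processed signal was 254 to 332 on the stage I arrays and 1148 to 1480 on the stage II arrays. The probes of *spc25* gave log2 differences of 1.99, 1.78 and 1.86.

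*cenpf* encodes a large coiled-coil protein that in mammals accumulates late in the cell cycle and joins the outermost layer of the kinetochore in mitosis. Its level was -2.60, -2.68 and -2.53 in stage I pools 1, 2 and 3, and -0.47, -0.79 and -1.18 in stage II pools 1, 2 and 3. Stage I pools lay close together, whereas stage II pools were spread over 0.71, and the stages did not overlap. Mean levels (± SD, n = 3) were -2.60 ± 0.07 in stage I pools and -0.81 ± 0.36 in stage II pools, a log2 difference of 1.79 (SE 0.18) or 3.46-fold. The probes gave log2 differences of 1.90, 1.76 and 1.71.

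**Figure D1:**
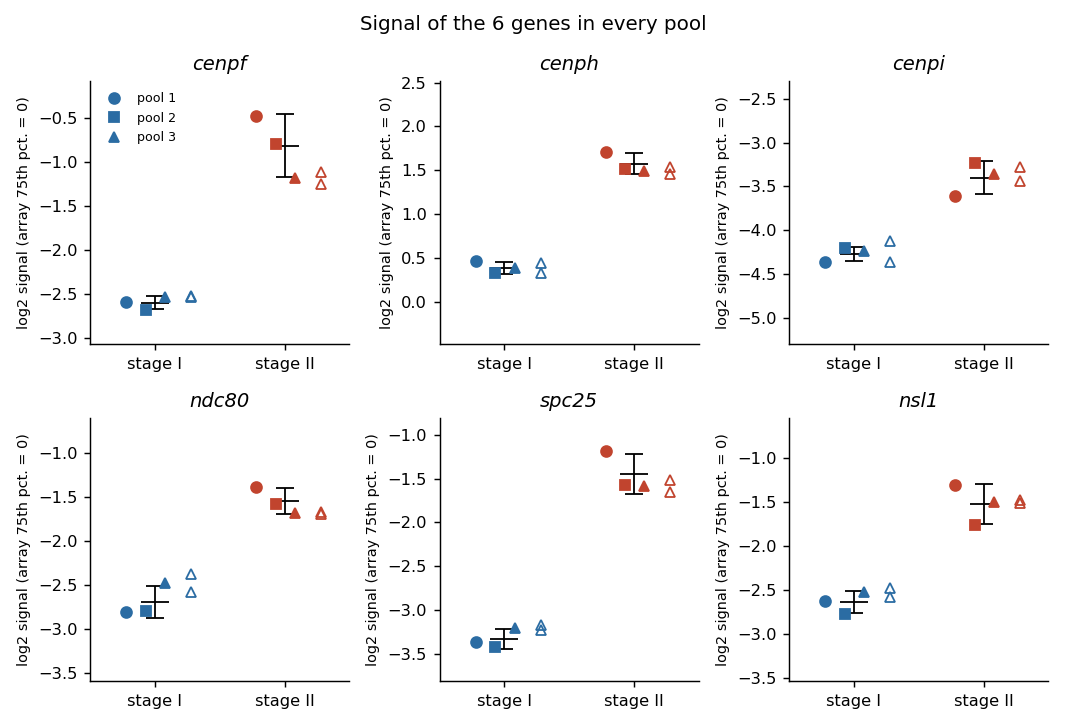
Log2 signal of each gene (y axis, with the 75th percentile of the array at 0 and the same span in every panel) in the 3 stage I pools (blue) and the 3 stage II pools (red). Filled symbols are pools, open triangles the repeated arrays of pool 3, and the black lines the mean ± SD over 3 pools. All stage II pools lie above all stage I pools for each gene, with gaps from 0.60 for *cenpi* to 1.61 for *spc25*.

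Across the array, 689 of 8994 targets tested (7.66%) passed both limits of the stage comparison, a Benjamini-Hochberg adjusted p under 0.01 by limma and a fold change over 2, and 153 (1.7%) did so with a higher level in stage II. These counts depended on the scaling, with 228 targets higher and 302 lower after quantile normalization, 260 higher and 390 lower after a shift to the array median, and 702 higher and 54 lower among 8965 targets with the deposited values. Of the 6 genes, 5 passed both limits, and *cenpi* did not, its fold change being under 2, whereas under each of these other scalings all 6 genes passed. Fewer passed in other settings. After normexp 1 gene passed, with 44 of 8994 targets higher, and by the methods' t-test after adjustment 2 genes, with 37 targets higher. By limma treat, a direct test for a fold change above 2, the count was 0 for the genes and for all targets. The pools of the stages did not overlap, with stage II higher, for 1997 targets (22.2%) and for all 6 genes, and in either direction for 5474 targets (60.9%). Because the genes were chosen for this contrast, these counts are descriptions only. The median log2 difference of the 6 genes was 1.17, against -0.13 over all targets tested.

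The order of the log2 differences was *spc25*, *cenpf*, *cenph*, *ndc80*, *nsl1* and *cenpi*, from the widest to the narrowest. Each gene has 9 pairs of a stage II pool with a stage I pool. For *spc25* the differences over these pairs ran from 1.61 to 2.24, above the whole range of *cenph* (1.03 to 1.39), *ndc80* (0.80 to 1.42), *nsl1* (0.77 to 1.47) and *cenpi* (0.60 to 1.12). The range of *cenpf*, 1.35 to 2.21, overlapped with those of *spc25*, *cenph*, *ndc80* and *nsl1* and lay above that of *cenpi*. All genes were measured in the same pools, however, and within each pair *cenpf* had a wider difference than *cenph*, *ndc80* and *nsl1*. Between *spc25* and *cenpf* the order changed from pair to pair. The ranges of *cenph*, *ndc80*, *nsl1* and *cenpi* overlapped, and their order also changed from pair to pair, so that it is within the spread of the pools. The subunits *ndc80* and *spc25* of the same complex thus differed by 0.73 in the size of their log2 difference. Over the 18 ways of processing and leaving out pools that were run, this distance was 0.42 to 0.83. Under normexp background correction *spc25* and *cenph* were nearly equal, at 1.20 and 1.18.

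**Figure D2:**
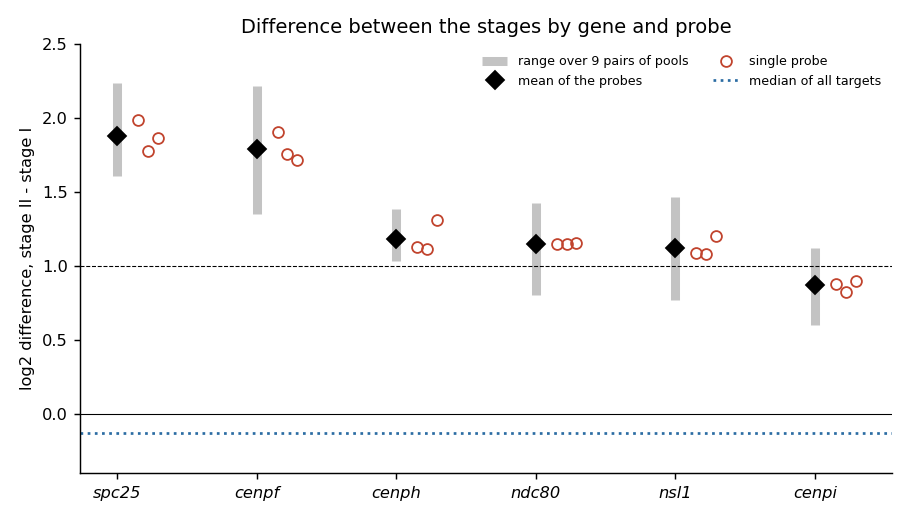
Log2 difference between the stages (y axis, stage II minus stage I) for the 6 genes in order of size. Diamonds are the mean of the probes, grey bars the range over the 9 pairs of pools, open circles the 3 probes one by one, the dashed line a fold change of 2 and the dotted line the median of all targets (-0.13). The bar of *spc25* overlaps only with that of *cenpf*, and all probes lie above 0.

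The agreement of the probes was set beside that of other targets, as a description. Among 4341 targets with 3 probes that passed the filter, the median range of the log2 difference over the probes was 0.12. The range was 0.0063 for *ndc80*, 0.08 for *cenpi*, 0.12 for *nsl1*, 0.19 for *cenpf*, 0.20 for *cenph* and 0.21 for *spc25*. For *cenpf*, *cenph* and *spc25* it was thus wider than the median, and only 0.299% of those targets had a range as narrow as that of *ndc80*. The paired spots of a probe differed by a median of 0.06 (*cenph* and *nsl1*) to 0.12 (*cenpi*) on the log2 scale, against 0.07 over all probes that passed.

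The study's list of differing genes, from which the symbols come, rests on a test that uses the spread between the pools of a stage, so this spread is given as a description. Over all targets tested, the median SD was 0.11 in stage I and 0.14 in stage II. The SD of *cenpf* in stage II, 0.36, was higher than that of 86.7% of targets, whereas its SD in stage I was higher than that of 27.3%. *ndc80* had the reverse order, with an SD of 0.19 in stage I that was higher than that of 77.1% of targets, and 0.15 in stage II, higher than 52.9%. For *cenph* the SD was low in both stages, at 23.8 and 42.2% of the ordered targets. With 3 pools per stage these SDs are themselves imprecise.

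Within stage II, on the scaled levels, pool 1 was the highest for 5 genes, *cenph*, *nsl1*, *ndc80*, *spc25* and *cenpf*. It lay 0.19 to 0.38 above the next pool for these genes and had the lowest level of *cenpi*. Pool 3 had the lowest level of 4 genes, *cenph*, *ndc80*, *spc25* and *cenpf*. Over all targets tested, pool 1 was the highest stage II pool for 31.1% and the lowest, as for *cenpi*, for 47.7%, and pool 3 was the lowest for 26.8%. Among the 153 targets that passed both limits with a higher level in stage II these shares were 83.7, 5.88 and 79.7%. Within stage I, pool 3 had the highest level of 4 genes, *nsl1*, *ndc80*, *spc25* and *cenpf*, and pool 2 the lowest of 4, *cenph*, *nsl1*, *spc25* and *cenpf*. Over all targets tested these shares were 32 and 23.6%, and among the 153 targets 38.6 and 49%. Without stage II pool 1 the log2 differences were 1.62 for *cenpf*, 1.11 for *cenph*, 1.07 for *ndc80*, 1.75 for *spc25* and 1.02 for *nsl1*. The lead of stage II pool 1 depended on the scaling. Before scaling, its processed signal was below that of stage II pool 2 for *cenpf* (2348 against 2553), *cenph* (10618 against 12554), *ndc80* (1246 against 1481) and *spc25* (1423 against 1480). For *nsl1* it was 1314, against 1303 in pool 2 and 1302 and 1374 on the arrays of pool 3. The part of the low share of spots above background on the array of stage II pool 1 in the orders of the pools was not tested.

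**Figure D3:**
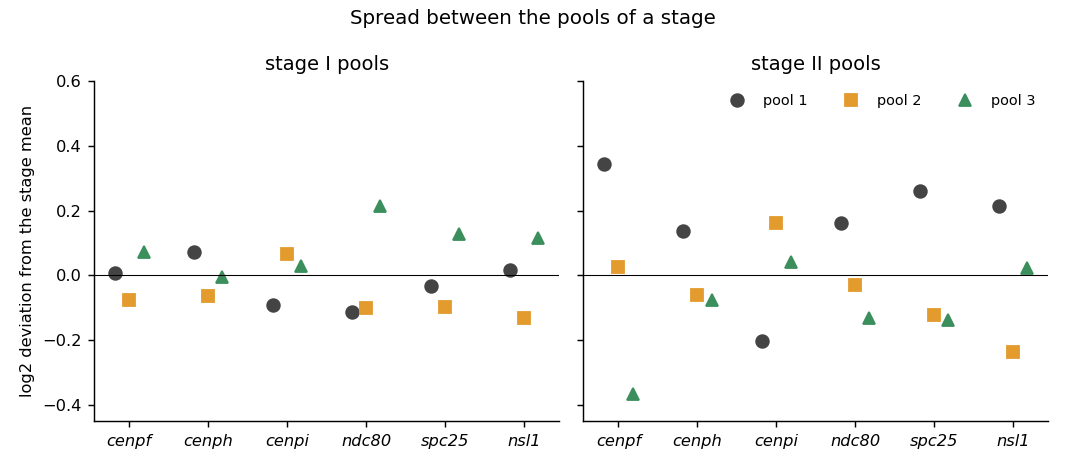
Deviation of each pool from the mean of its stage (y axis, log2) for the 6 genes, with stage I in the left panel and stage II in the right panel. Symbols and colours mark the 3 pools. On these scaled levels, pool 1 of stage II is the highest for 5 genes and the lowest for *cenpi*. The stage II pools of *cenpf* are spread over 0.71.

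Markers of cell types were examined in the same pools. Of the lists looked up, 2 of 2 genes of proliferating cells had a target, 4 of 6 of meiotic germ cells and 1 of 4 of Sertoli cells, whereas the lists for Leydig cells, spermatogonia and blood had no target with a symbol. *pcna*, the sliding clamp of DNA replication, was higher in stage II by 1.51 on the log2 scale and *mcm3*, a subunit of the replicative helicase, by 1.26. The mean level of this pair was 0.09, 0.11 and 0.41 in stage I pools 1, 2 and 3, and 1.78, 1.53 and 1.45 in stage II pools 1, 2 and 3. The mean of the pair was thus the highest in pool 3 within stage I and in pool 1 within stage II, as were *nsl1*, *ndc80*, *spc25* and *cenpf*. The order was not examined for each gene of the pair, whose SDs in stage II were 0.29 for *pcna* and 0.07 for *mcm3*. The mean log2 difference of the pair was 1.38, and 1.29 without stage II pool 1.

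The meiotic genes with a target were *dmc1*, a recombinase of meiotic strand exchange, *sycp2* and *syce1*, components of the synaptonemal complex, and *hsf2bp*, which in mice is required for meiotic recombination. They were higher in stage II by 1.71, 1.31, 1.83 and 1.89 on the log2 scale. The widest of these, that of *hsf2bp*, came from a dim target, at -5.94 ± 0.46 in stage I and -4.05 ± 0.54 in stage II. The lowest level of a probe well above background was -7.20 to -8.53 on the stage I arrays and -5.89 on the array of stage II pool 1. The mean level of the meiotic genes, *hsf2bp* included, was -1.41, -1.47 and -1.71 in stage I pools 1, 2 and 3, and 0.43, 0.19 and -0.15 in stage II pools 1, 2 and 3. Stage II pool 1 was again the highest, but stage I pool 3 was the lowest. Their mean log2 difference was 1.69, and 1.55 without stage II pool 1. *amh*, the anti-Müllerian hormone of Sertoli cells, was lower in stage II, at mean levels of 0.53 ± 0.26 in stage I and -0.66 ± 0.30 in stage II (SD over 3 pools), and stage II pool 2 was the lowest. The symbols of all these genes come from the study's list of genes that differed between the stages, so they are not independent of the contrast. The part of these cell types in the levels of the kinetochore genes was not tested.

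Other genes of the centromere, the kinetochore and the spindle checkpoint were looked up in a list of 48 symbols, of which 8 had a target that was tested. All 8 were higher in stage II in pools that did not overlap, against 22.2% of all targets tested. Both limits were passed by 6 of the 8, all higher in stage II, against 1.7% of all targets tested. None was lower, and their median log2 difference was 1.32. These targets too carry a symbol only because the study listed them as differing, so these counts are descriptions only. The mean level of the 8 genes was -1.16, -1.31 and -1.12 in stage I pools 1, 2 and 3, and 0.42, 0.26 and 0.11 in stage II pools 1, 2 and 3, again with pool 1 the highest and pool 3 the lowest in stage II. Their mean log2 difference was 1.46, and 1.38 without stage II pool 1.

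By role, *casc5* (also called *knl1*), a scaffold of the outer kinetochore that acts together with the Mis12 and Ndc80 complexes, was higher by 1.22 on the log2 scale. *nup37*, a nuclear pore subunit that also binds kinetochores in vertebrates, was higher by 1.24. Among checkpoint genes, *ttk*, the kinase that starts checkpoint signalling at kinetochores, was higher by 1.41, and *kntc1*, the Rod subunit that recruits dynein, by 1.65. *bub3*, a checkpoint adaptor, and *mad2l1bp*, which silences the checkpoint, were higher by 0.99 and 0.97 and did not pass the limit of 2-fold. *aurkb*, the kinase that releases faulty attachments, was higher by 1.59. *kif2c*, a kinesin that depolymerises microtubules at the centromere, was higher by 2.57 from one of its targets, and its other target was not among those tested.

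The likeness of the genes was described by the root mean square distance between log2 profiles over the 6 pools, each centred on its own mean, since the pools fall into clusters by stage and a correlation over them would mainly show the stage. Among the 6 genes, the nearest profiles were *cenph* and *nsl1* (0.11), *cenph* and *ndc80* (0.12), *cenpf* and *spc25* (0.13), and *ndc80* and *nsl1* (0.13). The profiles of *cenpi* and *spc25* were the farthest apart (0.56), and *ndc80* and *spc25*, of the same complex, were 0.37 apart. The median distance of all targets from the mean profile of the 6 genes was 0.75.

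Among 147 other targets with a symbol, the nearest to the mean profile of the 6 genes were *fen1* (0.04), a flap endonuclease of DNA replication, *nup37* (0.05), *p23* (0.06), *pold3* (0.06), a subunit of DNA polymerase delta, and *u2af35* (0.06), a splicing factor. Gene by gene, the nearest named target of *cenpf* was *dmc1* (0.10), that of *cenph* was *shmt1* (0.02), an enzyme of one-carbon metabolism, and that of *cenpi* was *apeh* (0.09), a peptide hydrolase. The nearest to *ndc80* was *mage* (0.07), the nearest to *spc25* was *trip13* (0.06), an ATPase of the spindle checkpoint and of meiosis, and the nearest to *nsl1* was *tfrc* (0.03), the transferrin receptor. These distances include the stage difference that chose the genes and their named neighbours, so a small distance is a description only.

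Because the stage I pools lay on plate 36 and the stage II pools on plate 37 except for the repeated arrays, the plate was examined next. For the RNA of pool 3 hybridised on both plates, the level on plate 37 minus that on plate 36 was 0.02 in stage I and 0.14 in stage II for *cenpf*, 0.12 and 0.07 for *cenph*, 0.24 and -0.17 for *cenpi*, 0.21 and 0.02 for *ndc80*, 0.05 and -0.14 for *spc25*, and 0.10 and 0.04 for *nsl1*. The SD of this difference over all targets was 0.22 in stage I and 0.16 in stage II, and *cenpi* alone lay beyond 1 SD, in both stages and with opposite signs. In a limma model of stage and plate, in which the pool was a random block, the plate effect was 0.12 (SE 0.09, adjusted p = 0.847) for *cenpf*, 0.10 (SE 0.05, adjusted p = 0.757) for *cenph* and 0.03 (SE 0.10, adjusted p = 0.987) for *cenpi*. It was 0.15 (SE 0.07, adjusted p = 0.725) for *ndc80*, -0.01 (SE 0.08, adjusted p = 0.995) for *spc25* and 0.07 (SE 0.07, adjusted p = 0.917) for *nsl1*. By the same limma fit none of the 8994 targets (0%) differed between the plates at an adjusted p under 0.01, and 666 (7.4%) did so at an unadjusted p under 0.05.

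Within plate 36, where the 3 stage I pools met the repeated array of stage II pool 3, the log2 difference between the stages was 1.36 for *cenpf*, 1.09 for *cenph*, 1.03 for *cenpi*, 1.04 for *ndc80*, 1.82 for *spc25* and 1.15 for *nsl1*. Within plate 37, where the 3 stage II pools met the repeated array of stage I pool 3, it was 1.74, 1.14, 0.69, 0.83, 1.70 and 0.96 for the same genes in the same order. Each plate thus had a single array of one of the stages, and in both of them *spc25* was among the 2 widest differences. With the plate as a term the differences were 1.69 for *cenpf*, 1.12 for *cenph*, 0.85 for *cenpi*, 1.04 for *ndc80*, 1.87 for *spc25* and 1.07 for *nsl1*.

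**Figure D4:**
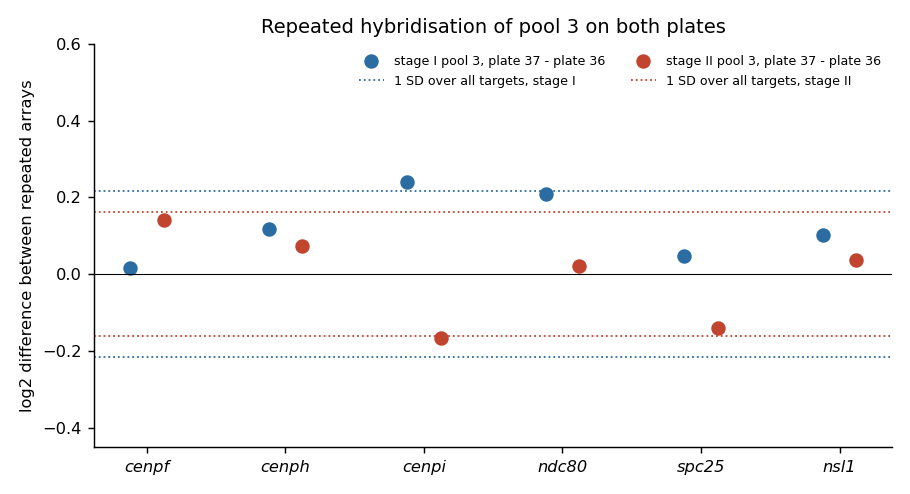
Log2 difference between the arrays of the same RNA on plate 37 and plate 36 (y axis) for the 6 genes, with stage I pool 3 in blue and stage II pool 3 in red. Dotted lines mark 1 SD of this difference over all targets (0.22 in stage I and 0.16 in stage II). Only the points of *cenpi* lie beyond the lines of their stage.

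The scaling between arrays moved the size of the differences. With the deposited log2 values, which carry no scaling between arrays, the median of all targets was 0.33 and that of the 6 genes 1.65, and the genes stood 1.32 above the median of all targets, against 1.29 after the percentile shift. Quantile normalization brought *cenpi* to 1.19, above *cenph* (1.17). Normexp background correction, which starts from the median spot signal and its local background, left *cenph* at 1.18 and gave lower differences for the other genes, with 1.33 for *cenpf*, 1.20 for *spc25* and 0.14 for *cenpi*. The level of *cenpi* under normexp was -3.66 and -3.44 in stage I pools 1 and 2, -2.15 and -1.68 on the repeated arrays of stage I pool 3, and -2.56 to -3.08 in stage II, so that the stages overlapped for this gene. The 6 differences were above 0 in all 18 ways of processing and leaving out pools that were run. Because the genes were chosen for this contrast, that count is a description only. The ways are also not independent, and leaving out the filter on dim probes, for instance, changed none of the 6 values.

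**Figure D5:**
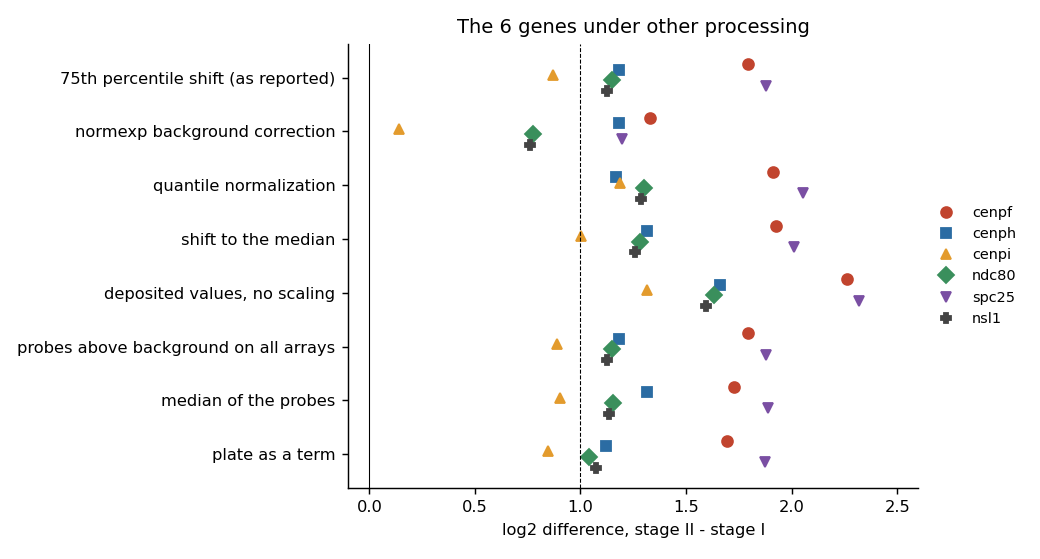
Log2 difference between the stages (x axis, stage II minus stage I) of the 6 genes under 8 ways of processing (y axis). The dashed line marks a fold change of 2, and symbols and colours mark the genes. All values lie above 0, and *cenpi* falls to 0.14 under normexp background correction.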

How the data were processed

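The 8 scanner files were deposited by the authors as spot intensity values from Agilent Feature Extraction (version 10.4 per the labels, 10.7.3.1 per the file headers), which had been background-subtracted and detrended but carry no normalization between arrays. Also deposited were log2 values of these signals for the whole series, with no scaling. Outlier spots were left out, log2 signals were shifted so that each array's 75th percentile was 0, as in the study's methods, and spots were averaged per probe. A probe passed where all arrays of a stage had it well above background, on at least 1 of its 2 spots for the genes described (18278 of 24200), and a target with a passing probe was the mean of all its probes. The arrays of pool 3 were averaged. limma 3.58.1 in R 4.3.3 was fitted to 8994 targets over the 6 pools, and for the plate over the 8 arrays (duplicateCorrelation 0.77). The standard-deviation filter of the methods has no limits given in the sources used here and was not repeated.

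All 6 genes, the list of 48 symbols with the nearest profiles, and the markers were named by rule, but the members and lists were chosen with earlier results of these data known. No array target name matched the supplied RefSeq table. Promoter windows were not analysed here. The scripts were tested on simulated arrays with 200 of 8994 targets shifted by 1.5 between the stages (log2). Of these limma recovered 82%, with 1 false call. For a plate effect of 1 it recovered 97.5% by the adjusted p alone. The simulated noise was independent between targets, and its size between arrays of a pool was set, not taken from the repeated arrays. Fewer targets were shifted than the 689 that passed both limits in the data. The recovered shares are thus not those of the real arrays. The plate effects of the 6 genes were at most 0.15 in size, and recovery of effects that small was not tested. Pools with the same number did not deviate together, so that numbers do not pair pools. Precision is limited by the number of arrays. Alternatives covered background correction, scaling, filters on dim probes, the probes of a target, the repeated arrays, the plate, the test and its limits, a replicate block, and leaving out each pool.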

Additional observations from a re-analysis of the deposited data

How the results depend on the processing

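The number of all targets past both limits, 689, was 123 after normexp, 456 with no filter on dim probes, 432 with probes well above background on every array, 419 with a replicate block for the pool number, 85 by the methods' t-test after adjustment (572 before) and 2336 with no limit on the fold change. Limma treat, which tests directly for a fold change above 2, called 0, with 302 at an unadjusted p under 0.05. Leaving out each pool gave 236 (without stage I pool 2) to 848 (without stage II pool 3). Fits without a pool have fewer pools to estimate the spread.

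Of the 6 kinetochore genes, 5 passed both limits, against 6 after quantile normalization, after the median shift and with the deposited values. The count was 1 after normexp, 2 by the adjusted t-test, 0 by treat, 4 with the replicate block, and 3 (without stage I pool 2) to 5 when a pool was left out. Of all 8994 targets, 153 passed with a higher level in stage II, against 228 after quantile normalization and 260 after the median shift. With the deposited values 702 of 8965 did so. This number was 44 after normexp, 37 by the adjusted t-test, 0 by treat and 130 with the replicate block. It was 108 (without stage I pool 2) to 204 (without stage II pool 3) when a pool was left out. The correlation of same-numbered pools' deviations was -0.04, -0.01 and -0.07, so the pool number does not pair samples. The median log2 difference of the 6 genes, 1.17, was 0.98 after normexp, 1.65 with the deposited values, and 1.09 (without stage II pool 1) to 1.23 (without stage II pool 2). Normexp gave 1.33 for *cenpf*, 0.14 for *cenpi*, 0.77 for *ndc80*, 1.20 for *spc25* and 0.76 for *nsl1*, quantile normalization 1.19 for *cenpi*, and the deposited values 2.26 for *cenpf*, 1.66 for *cenph*, 1.31 for *cenpi*, 1.63 for *ndc80*, 2.32 for *spc25* and 1.60 for *nsl1*. For *cenph*, the shift to the array median gave 1.32, the median of the probes 1.31 and its highest probe alone 1.31. The plate effect of *cenpi* changed sign after quantile normalization (-0.12, adjusted p = 0.442 by limma, the lowest of a range of 0.442 to 1 over the alternatives for the 6 genes). The causes were not tested. Calls with a higher level in stage II made up 22.2% of all calls, against 43% after quantile normalization, 40% after the median shift, 35.8% after normexp and 92.9% with the deposited values. *spc25* was above *cenpf* in 16 of 18 settings, all but normexp and the fit without stage II pool 3.

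Limits on these values come from 3 pools per stage, from a plate that nearly follows the stage, and from the low signal of *cenpi*. No gene was flagged by the spread of its pools, since groups of 3 were not screened for outliers. The lists of markers and other kinetochore genes without stage II pool 1 were added after seeing the data. The planned counts of promoter motifs were not run because no promoter sequences were given.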
